A study of Mus musculus with 7 samples.

Results

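The genes described here are 10 that mark B-1 cells, T-bet-positive B cells and related non-follicular B cells of the mouse: Nt5e, Bhlhe41, Spn, Tbx21, Sox5, Nfil3, Zbtb20, Dnm3, Gpr55 and Plscr1. They were taken by symbol from the 27998 genes of the count matrices, and each symbol matched 1 gene. They were selected on earlier measured UMI counts of the same B cells, old and young. Their old and young values in B cells are therefore a description, and the p-values printed for them are not an independent test. The study compared the stromal vascular fraction of inguinal subcutaneous adipose tissue, the non-fat cells set free by collagenase, from female C57BL/6N mice. There were 3 libraries from old mice, aged 18 months, and 4 from young mice, aged 11 to 12 weeks; the labels name no other allele or agent. Each library was a droplet-based 3′ single-cell RNA library with unique molecular identifiers (UMIs), and no label said whether 1 library held 1 mouse or pooled mice. A p-value therefore measures the spread between libraries.

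B-1 cells are a self-renewing B cell lineage of the body cavities and of fat that makes natural antibody without help from T cells. T-bet-positive B cells, also called age-associated B cells, accumulate in older mice and after infection and carry the T-box transcription factor T-bet, encoded by Tbx21. Both stand apart from follicular B cells, the recirculating majority in spleen and lymph nodes, which carry CD23 (Fcer2a) and CD21 (Cr2). Adipose tissue holds B cells of several kinds, in fat-associated lymphoid clusters and in its stroma.

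The promoter sequences of 3 members that shared B cells in these data, the surface enzyme gene Nt5e and the transcription factor genes Bhlhe41 and Tbx21, are shown to place the genes and the one motif match among them. Each window runs 5′ to 3′ on the gene's own strand, from 250 bases before to 50 bases after the RefSeq start, in build GRCm38.p6. The Nt5e window is chr9:88327359-88327658 on the plus strand, the Bhlhe41 window chr6:145865371-145865670 on the minus strand, and the Tbx21 window chr11:97115282-97115581 on the minus strand. Capitals mark a match to a searched motif, and the rest is in lower case.
Nt5e: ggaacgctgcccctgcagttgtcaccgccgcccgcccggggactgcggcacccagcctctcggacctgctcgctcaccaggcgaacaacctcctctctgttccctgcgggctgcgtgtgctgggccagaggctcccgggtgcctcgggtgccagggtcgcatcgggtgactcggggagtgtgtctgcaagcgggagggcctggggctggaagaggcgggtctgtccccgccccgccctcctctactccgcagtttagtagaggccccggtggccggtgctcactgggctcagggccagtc
Bhlhe41: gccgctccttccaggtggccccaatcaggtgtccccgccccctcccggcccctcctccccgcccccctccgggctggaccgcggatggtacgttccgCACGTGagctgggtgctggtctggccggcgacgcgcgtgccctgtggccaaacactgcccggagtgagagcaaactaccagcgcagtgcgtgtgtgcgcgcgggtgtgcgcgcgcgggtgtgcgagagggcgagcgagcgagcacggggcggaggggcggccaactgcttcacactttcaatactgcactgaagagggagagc
Tbx21: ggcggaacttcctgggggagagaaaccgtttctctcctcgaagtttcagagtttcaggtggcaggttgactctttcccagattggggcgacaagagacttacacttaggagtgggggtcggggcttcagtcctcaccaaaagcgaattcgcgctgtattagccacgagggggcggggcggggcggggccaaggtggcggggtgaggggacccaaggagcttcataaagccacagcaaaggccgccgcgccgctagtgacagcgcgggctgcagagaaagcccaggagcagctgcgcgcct
By GENCODE M21 the other members lie in mm10 on chromosome 7 from 127132232 to 127137823 (Spn), 6 from 143828425 to 144781977 (Sox5), 13 from 52967209 to 52981073 (Nfil3) and 16 from 42875881 to 43642602 (Zbtb20). Dnm3 and Gpr55 lie on chromosome 1, from 161982453 to 162478034 and from 85938318 to 85961007, and Plscr1 on chromosome 9 from 92249750 to 92272278. All 10 members had a RefSeq promoter window. The searched motifs were the E-box CACGTG, to which factors of the Bhlhe41 family bind, the T-box element AGGTGTGA, the Nfil3 site TTACGTAA and the SOX core AACAAT, each on both strands. The E-box was in 1 member window, that of Bhlhe41 itself, 153 bases before the start, and in 7.15% of all 32851 windows. The SOX core was in the Dnm3 window alone, against 10.7% of all windows. The T-box element and the Nfil3 site were in no member window, against 1.28% and 0.119% of all windows. A match is a string of letters and says nothing of binding.

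B cells were kept cells with at least 2 UMIs of Cd79a, which encodes a signalling chain of the B cell receptor. They numbered 259, 268 and 1314 in the old libraries and 73, 109, 186 and 79 in the young libraries, 2288 of 37265 kept cells. Their share of kept cells was 4.19%, 3.89% and 22.7% in the old libraries against 1.62%, 1.96%, 6.65% and 1.42% in the young libraries. The means, 10.2% ± 10.7 in old and 2.92% ± 2.50 in young libraries (SD, n = 3 and 4), did not differ beyond the spread (exact 2-sided permutation test over 35 splits, p = 0.171). Old library 3 alone gave most of the old B cells. All 6 B cell markers on the fixed list were detected in every library, and Cd79b had a UMI in 80.7% to 100% of the gated cells of a library. The median depth of a B cell was 5898, 6396 and 4220.5 UMIs in the old libraries and 4389, 4622, 5958.5 and 4610 UMIs in the young libraries. Pairs of libraries shared 2 to 16 cell barcodes.

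The gate also took in cells that did not cluster as B cells. Of the gated cells, 210, 187 and 1210 in the old and 71, 92, 174 and 74 in the young libraries lay in the 1 cluster with B cell markers. A cluster led by the plasma cell genes Jchain, Mzb1 and Derl3 held 30, 67 and 55 gated cells in the old and 2, 1, 1 and 1 in the young libraries. The remaining 82 old and 31 young cells lay in other clusters. These included all 12 kept cells of a small cluster whose lead genes held Ms4a1, Cd79a and Pax5 beside Pf4 and Mgl2. Those young cells were deep, with a median of 24146 UMIs, against 4949 UMIs for young cells of the B cell cluster. In young library 2 such cells held 56.1% of all UMIs of the gate, and 7 markers of adipose progenitors (Pdgfra, Col1a1, Col3a1, Dcn, Lum, Dpp4 and Pi16) summed to 32754 CPM (UMIs per 1000000 UMIs of the summed cells). In the old libraries the same sum was 721 to 2021 CPM. In the other young libraries it was 801 to 8775 CPM. The sum over 7 macrophage markers was 781 to 1245 CPM in old and 72.4 to 690 CPM in young libraries, with no overlap, and all 7 were detected in each old library and 5 to 7 in a young one. The sum over 8 T cell markers was 64.3, 27.6 and 44.5 CPM in old and 10.7, 15.2, 13.4 and 82.3 CPM in young libraries. Their part in the members' values was not tested. Young library 2 stood apart, and each member is also given for gated cells of the B cell cluster alone, a restriction chosen after seeing the data.

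Among the surface molecules, Nt5e encodes CD73, the membrane enzyme that turns AMP into adenosine. It lies on mm10 chromosome 9, from 88327197 to 88372092. In summed B cells it had 70.4, 82.8 and 39.4 CPM in the old libraries against 5.37, 11.6, 3.20 and 0 CPM in the young libraries. Every old library lay above every young one. Within the B cell cluster it had 113, 155 and 49.0 CPM in the old libraries, and 3 of the 4 young libraries were at 0 with 2.86 CPM in the other. That is 586 UMIs in 1607 old cells and 3 UMIs in 411 young cells.

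Spn encodes CD43, a sialic acid-rich surface protein borne by B-1 cells, plasma cells and T cells and not by resting follicular B cells. It had 43.4, 81.5 and 20.1 CPM in the old libraries against 10.7, 1.79, 6.40 and 6.33 CPM in the young libraries. Old library 3 was the lowest of the old libraries and still lay above the highest young one. Gpr55 encodes a receptor for lysophosphatidylinositol that is expressed in lymphocytes. It had 23.8, 31.8 and 10.3 CPM in the old libraries against 5.37, 0, 1.28 and 2.11 CPM in the young libraries, which is 5 UMIs over all young B cells and 200 over all old ones. The groups did not overlap for either gene.

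Among the transcription factors, Tbx21 encodes T-bet, on mm10 chromosome 11. It had 13.1, 9.76 and 10.4 CPM in the old libraries, and young libraries 1 UMI in all, 2.11 CPM in library 4. The pooled ratio of the 126 old UMIs to the 1 young UMI, per UMI sequenced, was 37.9, with an exact 95% interval of 6.69 to 1510 that covers counting error only. The width of the interval is set by the single young UMI, and since Tbx21 was selected on these counts the ratio is a description. The sum over 7 natural killer cell markers, which mark cells rich in Tbx21, was 15.4, 2.97 and 34.4 CPM in the old and 2.68, 9.82, 48.7 and 4.22 CPM in the young libraries, and its part was not tested. Bhlhe41 encodes a basic helix-loop-helix repressor that B-1a cells need for their self-renewal. It had 85.3, 88.7 and 63.3 CPM in the old libraries against 21.5, 14.3, 42.3 and 16.9 CPM in the young libraries. All old values lay above the highest young value, that of library 3, where 53 of the 66 UMIs came from 1 cell. Bhlhe41 had, in the B cell cluster alone, 91.0, 111 and 59.5 CPM in old and 21.8, 9.17, 11.5 and 17.2 CPM in young libraries.

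Sox5, a SOX family factor, had 19.6, 35.2 and 10.1 CPM in the old libraries against 5.37, 11.6, 3.84 and 8.44 CPM in the young libraries. Old library 3 lay below young library 2, so the groups overlapped. Nfil3 encodes a basic leucine zipper factor needed for natural killer cell development and active in B cell class switching. It had 73.2, 78.5 and 66.4 CPM in the old libraries against 2.68, 98.2, 32.0 and 27.4 CPM in the young libraries. Zbtb20 encodes a zinc finger repressor related to Bcl6 that supports long-lived plasma cells. It had 818, 753 and 278 CPM in the old libraries against 282, 1069.7, 209 and 329 CPM in the young libraries. For both genes the highest of the 7 values was that of young library 2, the library with the highest sum of progenitor markers. The part of progenitor RNA in these values was not tested. Within the B cell cluster, Nfil3 had 58.5, 75.0 and 49.3 CPM in old and 3.12, 18.3, 6.68 and 8.59 CPM in young libraries. Zbtb20 had 941, 1118.8 and 271 CPM there in old and 178, 151, 183 and 140.3 CPM in young libraries. Inside that cluster no young library overlapped an old one for Sox5, Nfil3 or Zbtb20.

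The remaining members act at membranes. Dnm3 encodes a dynamin, a GTPase that pinches off vesicles, and had 64.3, 25.0 and 19.3 CPM in the old libraries against 2.68, 17.9, 3.20 and 6.33 CPM in the young libraries. Within the B cell cluster it had 246 UMIs in old cells and 0 in the 411 young cells, at least 22.4-fold higher in old against a floor of 3 UMIs over the young group. Plscr1 encodes an interferon-induced phospholipid scramblase, and had 48.5, 67.5 and 48.8 CPM in the old libraries against 10.7, 18.8, 16.0 and 6.33 CPM in the young libraries. The lowest old value, in library 1, was above the highest young value, in library 2.

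**Figure D1:**
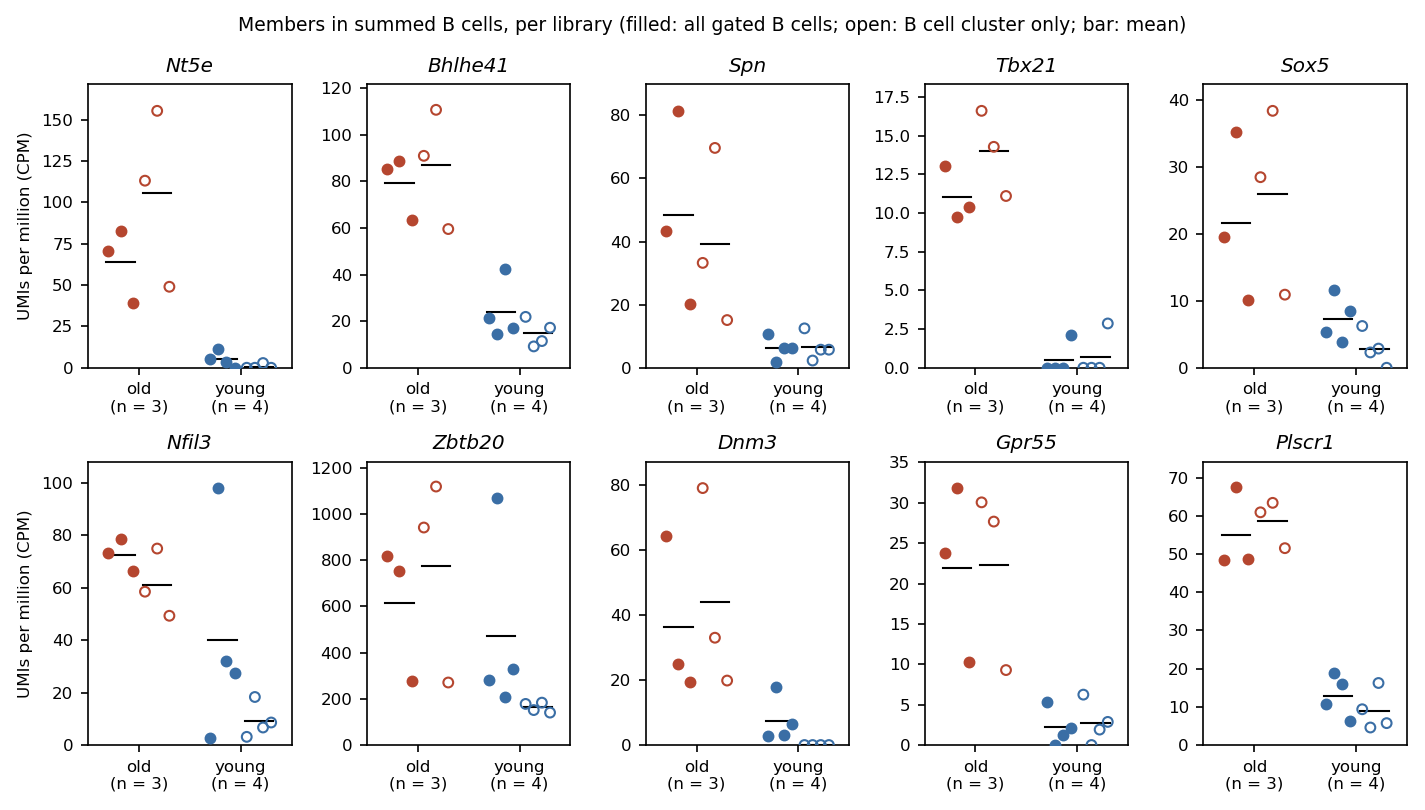
CPM of each member (linear axis from 0) in the old libraries (left, n = 3) and young libraries (right, n = 4), 1 point per library, with filled points for all gated B cells, open points for the B cell cluster alone and bars for means. In filled points the groups did not overlap for 7 members, and in open points for all 10; the high filled young points of Nfil3 and Zbtb20 are young library 2.

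In all gated B cells, 7 of the 10 members had every old library above every young library, beside 5.95% of the 9515 genes tested, and 0 had every old library below, beside 4.66%. Within the B cell cluster all 10 did, beside 4.74% of the 11340 genes with at least 10 UMIs there. All 10 members passed the filter on low counts, but Tbx21 and Gpr55 reached its 6.40 CPM in no young library, Nt5e and Dnm3 in 1, and Spn and Sox5 in 2. The filter asked for 3 libraries, so these members passed only with their old libraries. The fit of old against young over all 9515 genes (edgeR's quasi-likelihood test, Benjamini-Hochberg adjustment over all genes) called 76 genes higher in old (0.799%) and 31 lower (0.326%). Of the members, 5 were higher in old and 0 lower. Since the list was drawn up with these cells in view, nothing is read from that excess.

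On the log2 scale, with its standard error, the difference of old over young was 3.52 ± 0.55 for Nt5e (edgeR adjusted p = 0.0208), 5.02 ± 0.84 for Tbx21 (0.0278) and 2.01 ± 0.32 for Plscr1 (0.0217). It was 3.08 ± 0.57 for Spn (edgeR adjusted p = 0.0388) and 3.81 ± 0.72 for Gpr55 (0.0439). The other members did not pass: Bhlhe41 at 1.70 ± 0.35 (edgeR adjusted p = 0.0590), Dnm3 at 2.14 ± 0.62 (0.137), Sox5 at 1.54 ± 0.50 (0.174), Nfil3 at 0.80 ± 0.61 (0.641) and Zbtb20 at 0.37 ± 0.55 (0.861). The median of the members was 2.07, and that of all genes tested 0.01. These calls needed all 3 old libraries: 0 members were called without old library 1 or 2, 1 (Spn) without old library 3 and 1 (Nt5e) without young library 4. With cells limited to at most 5% mitochondrial UMIs and at least 500 genes, which left 54, 46 and 700 old and 20, 28, 86 and 20 young B cells, 0 of the 7 members tested were called and Nt5e stood at 0.95.

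Within the B cell cluster, 7585 genes were tested, of which edgeR called 51 higher in old (0.672%) and 19 lower (0.25%), and all 9 members tested were higher in old. Gpr55 did not pass the filter there. The log2 differences were 6.10 ± 0.60 for Nt5e (edgeR adjusted p = 4.06e-05), 2.57 ± 0.32 for Bhlhe41 (0.000788), 2.70 ± 0.37 for Nfil3 (0.00234) and 2.15 ± 0.34 for Zbtb20 (0.00412). They were 3.04 ± 0.61 for Sox5 (edgeR adjusted p = 0.0214), 2.45 ± 0.35 for Plscr1 (0.00307), 4.59 ± 0.87 for Tbx21 (0.0143) and 2.52 ± 0.54 for Spn (0.0345). Of the 9 tested, Tbx21 and Spn were smaller here than in all gated cells, and the other 7 larger. The Dnm3 difference passed (edgeR adjusted p = 0.00324), but its fitted size is no bound because the young cells had 0 UMIs. Leaving out old library 3, which gave 1210 of the 1607 old cells of that cluster, all 10 members were called, with Gpr55 at 3.43 ± 0.56 (edgeR adjusted p = 0.00348).

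**Figure D2:**
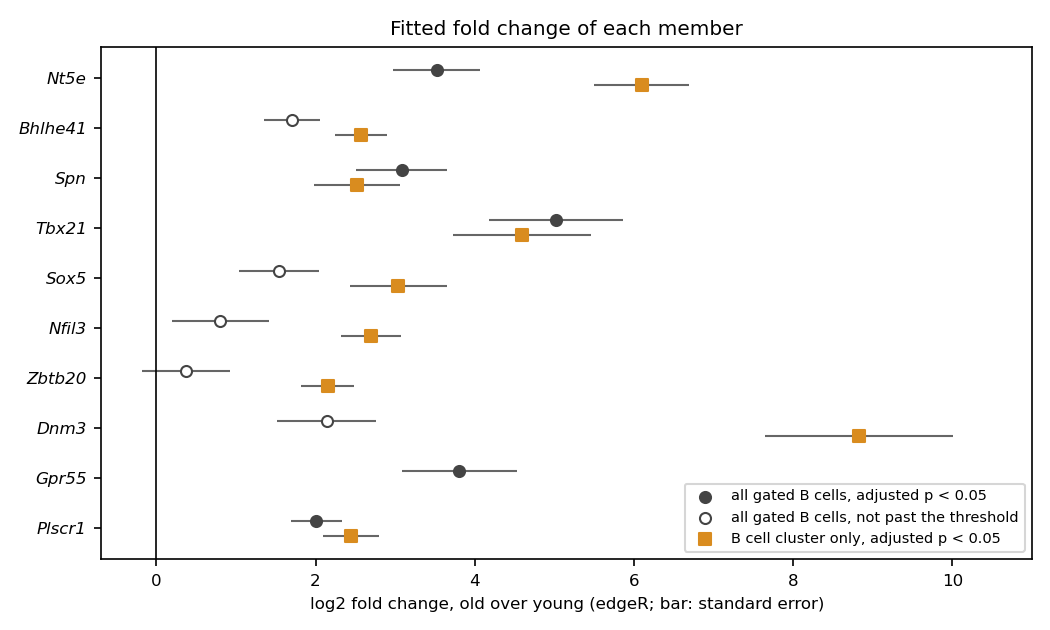
Fitted log2 difference of old over young with its standard error (horizontal axis) for each member, as dark circles for all gated B cells and orange squares for the B cell cluster, filled where the edgeR adjusted p was under 0.05. All points lie right of 0; the Dnm3 square has 0 young UMIs behind it, so its position depends on the prior count, and Gpr55 has no square because it was not tested there.

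Differences in depth between cells were removed by thinning each B cell to 2000 UMIs, which left 251, 265 and 1269 old cells and 72, 107, 185 and 79 young cells. Cells with an Nt5e UMI were then 10.4%, 15.1% and 5.20% of B cells in the old libraries against 0%, 0%, 0.541% and 0% in the young libraries. Cells with a Tbx21 UMI were 3.19%, 2.64% and 1.73% in the old libraries and 0 of the 443 young cells, which allows a share of up to 0.677%. Thinned to 1000 UMIs, the ages overlapped for Tbx21, with means of 0.636% in old and 0.316% in young libraries (exact permutation p = 0.486). Bhlhe41 was found in 14.7%, 12.8% and 7.41% of old and 4.17%, 1.87%, 3.78% and 1.27% of young B cells. Old library 3, with the most B cells, had the lowest share of the old libraries for every member. For 9 members every old share lay above every young share, beside 4.67% of the 10463 genes with at least 10 such cells. For 0 members every old share lay below, beside 2.94% of those genes. Each of the 9 reached the smallest p that 35 splits allow (exact 2-sided permutation test, p = 0.0286). Zbtb20 was the exception, at 56.6%, 60.4% and 28.5% of old and 22.2%, 32.7%, 22.2% and 29.1% of young B cells (exact permutation p = 0.0857). Without thinning, Sox5, Nfil3 and Dnm3 overlapped between the ages as well.

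**Figure D3:**
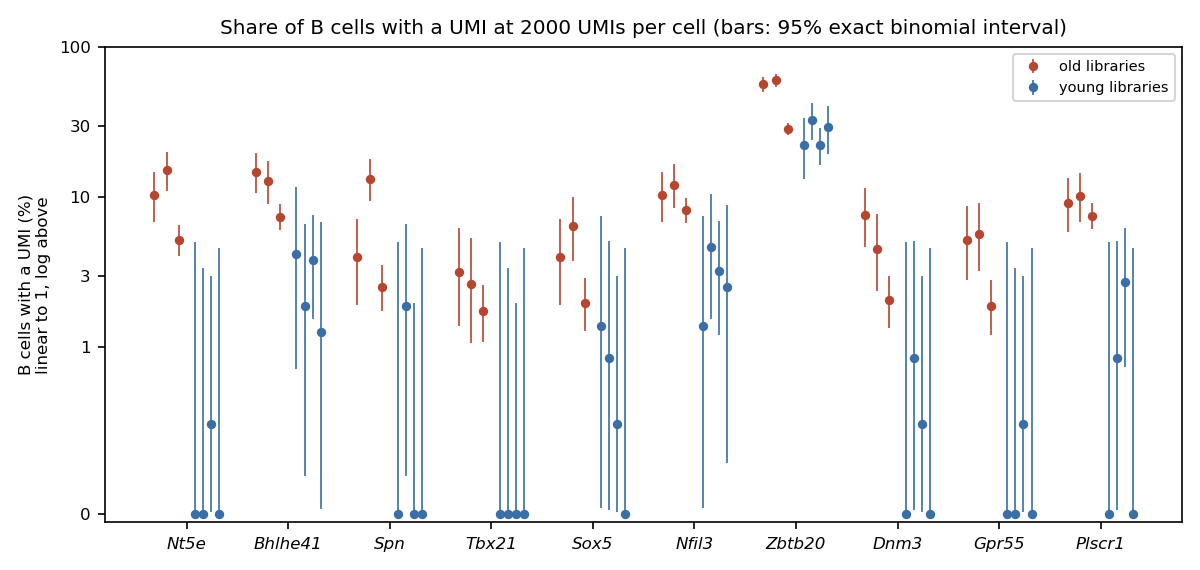
Share of B cells with a UMI of each member at 2000 UMIs per cell (vertical axis, linear up to 1% and logarithmic above), old libraries left in red and young libraries right in blue, with exact 95% binomial intervals for counting error. Old points lie above young points for 9 members, and Zbtb20, present in 22.2% to 60.4% of B cells, overlaps.

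Low shares can come from free RNA in the droplets. Unthinned, Tbx21 had a UMI in 0.404% of 11868 progenitors at a median of 14641 UMIs, and Gpr55 in 0.0758% of them. Nt5e had a UMI in 0.764% of 1832 macrophages at a median of 8193 UMIs. In old cells of the B cell cluster, at a median of 4305 UMIs, the shares were 5.10% for Tbx21, 5.54% for Gpr55 and 16.7% for Nt5e. In young cells of that cluster, at a median of 4949 UMIs, they were 0.243%, 0.973% and 0.487%. The progenitors and macrophages were deeper, so these shares are not alike in depth. Per UMI, Tbx21 had 0.464 CPM in those young cells (1 UMI), and a mean of 0.290 CPM over libraries in progenitors. Nt5e had 1.39 CPM there (3 UMIs), and a mean of 1.16 CPM in macrophages. So few young UMIs cannot order these levels.

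The members were spread unevenly over the B lineage of old tissue. Nt5e had 74.4 CPM in the B cell cluster and 3.52 CPM in the 152 gated cells of the Jchain-led cluster, where 4.61% of cells had a UMI at a median of 11866.5 UMIs. Tbx21 had 12.4 CPM in the B cell cluster and 3.52 CPM in the Jchain-led cluster. Spn went the other way, with 74.9 CPM in the Jchain-led cluster and 25.8 CPM in the B cell cluster. These values are pooled over libraries, and old library 3 gave 1210 of the 1607 cells of the B cell cluster but 55 of the 152 of the Jchain-led cluster; for Nt5e, Tbx21 and Spn each old library had the same order. Nfil3 had 115 CPM in the Jchain-led cluster and 54.5 CPM in the B cell cluster, with the same order in each old library. Gpr55 had 34.2 and 15.2 CPM there, but in old library 1 it had 27.9 CPM in the Jchain-led cluster and 30.1 CPM in the B cell cluster. Bhlhe41, Plscr1 and Sox5 had no common order over the old libraries: Plscr1, for example, had 13.9, 101 and 39.8 CPM in the Jchain-led cluster against 60.9, 63.4 and 51.5 CPM in the B cell cluster. Clusters were built from 2000 variable genes, and it was not recorded whether members were among them. These values therefore describe where the members lay and carry no test. The 5 young gated cells of the Jchain-led cluster are too few to compare.

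The members tended to occur in the same cells. For each ordered pair, the share of old B cells with the second gene was set beside the first gene's presence, at 2000 UMIs per cell and averaged with equal weight over libraries with at least 10 cells holding the first gene. Of the 90 pairs, 82 had the second gene more often in cells with the first. Of the 81 pairs measured in at least 2 old libraries, 46 did so in each of them. Every pair of genes enters in both directions, so these are not counts of independent pairs. Pairs of genes outside the list were not measured beside them. Cells with any member also had more UMIs before thinning, for Nt5e a median of 5724 against 4517, and the same 3 libraries stand behind all pairs. Nt5e and Bhlhe41 overlapped clearly, since Bhlhe41 was found in 25.5% of cells with Nt5e against 10.3% of cells without, higher in 3 of 3 libraries. Conversely Nt5e was found in 20.6% of cells with Bhlhe41 against 8.83% of cells without.

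Zbtb20 had the widest overlap, being found in 83.5% of cells with Dnm3 against 46.8% of cells without, and in 72.9% of cells with Nt5e against 45.7% of cells without. It was in 73.5% of cells with Spn against 47.1%, and in 75.5% of cells with Gpr55 against 47.3%. Spn and Gpr55 also met, with Gpr55 in 13.9% of cells with Spn against 3.74% of cells without. Nfil3 met some members little: Bhlhe41 was in 11.4% of cells with Nfil3 against 11.8% without, Dnm3 in 4.57% against 4.75%, and Zbtb20 in 49.5% against 48.5%. Each of these was still higher with Nfil3 in 2 of 3 libraries. Tbx21 was in 1.92% of cells with Nfil3 against 2.64% without. Other members met Nfil3 more, with Sox5 in 7.37% of cells with Nfil3 against 3.74% without, and Nt5e in 13.5% against 9.90%. Within the B cell cluster alone, 83 of the 90 pairs were higher in cells with the first gene.

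**Figure D4:**
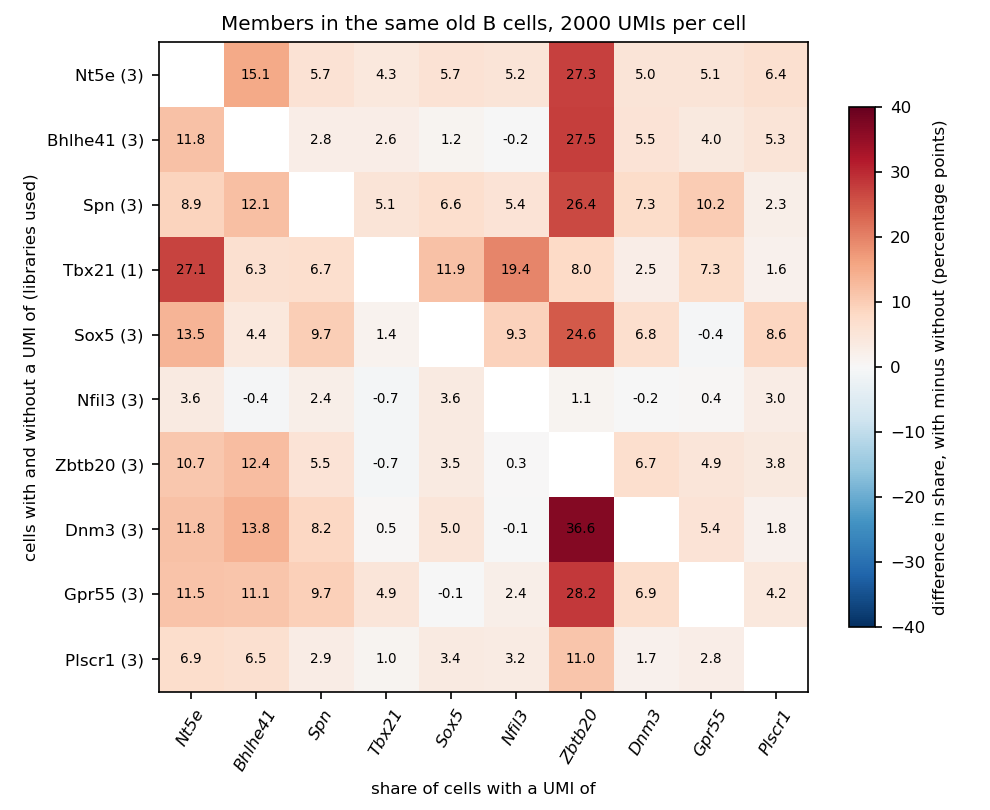
Difference in the share of old B cells with a UMI of the column gene between cells with and cells without a UMI of the row gene, in percentage points at 2000 UMIs per cell; the number in brackets is how many libraries had at least 10 cells with the row gene. Positive (red) squares fill 82 of 90 pairs, the Zbtb20 column is the strongest, the Nfil3 row has small differences, and the Tbx21 row rests on 1 library.

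At 2000 UMIs only 37 old B cells had a Tbx21 UMI, 8, 7 and 22 by library, so its overlaps rest on old library 3. There Nt5e was found in 31.8% of the 22 cells with Tbx21 against 4.73% of cells without, and Nfil3 in 27.3% against 7.86%. Zbtb20 was in 36.4% of cells with Tbx21 against 28.4% without. The gaps given above for Nt5e and Dnm3 are means over 3 old libraries, so this one cannot be ranked against them. Over the 3 old libraries, 10 of the 37 Tbx21 cells held Nt5e and 4 held both Nt5e and Bhlhe41, while 16 held none of the 8 other members apart from Zbtb20. T-bet is also a T and natural killer cell factor: 23 of the 37 cells had no UMI of Cd3d, Cd3e, Cd3g, Nkg7, C1qa or C1qb, and 33 lay in the B cell cluster. UMIs of those lineage genes were found in 37.8% of old B cells with Tbx21 against 24.6% of those without, and in 33.3% against 24.2% for Nt5e. These shares were counted before thinning and pooled over the old libraries. By library, 125 of 259, 156 of 268 and 169 of 1314 gated old cells had such UMIs, so the mix of libraries enters both gaps. Its part was not tested. In B cells without any such UMI, 77 of 90 pairs were higher in cells with the first gene, and 23 of the 45 pairs measured in at least 2 old libraries were so in each.

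Counting the 9 members other than Zbtb20 per cell, 19.1%, 21.1% and 7.88% of B cells in the old libraries had UMIs of 2 or more at 2000 UMIs, against 0%, 0.935%, 1.62% and 0% in the young libraries. Cells with 3 or more were 4.38%, 5.66% and 2.44% in the old libraries, and there were 0 among the 443 young cells. Old B cells with none of the 9 were 56.2%, 46.4% and 72.7%, against 93.1%, 89.7%, 89.7% and 96.2% of young B cells. The largest count in 1 cell was 6, in old library 3.

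For each member measured in at least 2 libraries, the 3 genes outside the list whose share differed most between cells with and without it are given as a description, at 2000 UMIs and with equal weight per library. All libraries behind them were old, except for Zbtb20, which used all 7. Satb1, a chromatin organiser of lymphocytes, was among the 3 genes of largest difference for 7 members and was always less frequent with the member: it was in 7.65% of cells with Nt5e against 40.2% without, in 15.5% of cells with Bhlhe41 against 40.0%, in 13.9% with Spn against 38.7%, and in 7.29% with Sox5 against 38.4%. It was in 4.79% of cells with Dnm3 against 38.7%, in 6.73% with Gpr55 against 38.5%, and in 40.1% with Zbtb20 against 57.9%. Cd86, a costimulatory ligand for T cells, was in 55.6% of cells with Nt5e against 31.9%, and Irf2bp2, a transcriptional co-repressor, in 59.2% against 26.6%. Mzb1, a chaperone of antibody assembly, was in 71.4% of cells with Bhlhe41 against 49.4%, and in 79.3% of cells with Gpr55 against 50.6%. Fcer1g, the shared signalling chain of Fc receptors, was in 56.2% of cells with Dnm3 against 13.3%. Cybb, a subunit of the phagocyte oxidase, was in 65.1% of cells with Spn against 39.0%, and Odc1, the first enzyme of polyamine synthesis, in 55.3% of cells with Plscr1 against 33.0%. UMIs of the T, natural killer and macrophage genes named above were counted before thinning and pooled over the old libraries. They were in 49.1% of cells with Dnm3 against 24.1% without, and in 49.4% of cells with Spn against 23.8%. The old libraries differed in their share of cells with such UMIs, as given above, and the part of these genes was not tested. Cells with Gpr55 also had AC168977.1 more often (38.4% against 8.86%). For Sox5, Mef2c, a factor of B cell activation, was less frequent (44.9% against 73.4%) and Cd47, an inhibitor of phagocytosis, more frequent (72.2% against 44.2%). Nfil3 went with less Ebf1, a B lineage factor (54.3% against 72.8%), and more Sec61b, a subunit of the secretory channel (55.4% against 39.1%), and Fam46c, a poly(A) polymerase of plasma cells (34.7% against 18.9%). The remaining genes were Gpx4 with Bhlhe41 (55.3% against 33.6%), Ppp3ca with Spn (23.7% against 44.9%), Vps37b with Dnm3 (24.5% against 56.5%), Ptms with Zbtb20 (21.8% against 9.46%), and Ly6a with Zbtb20 (48.9% against 35.4%) and Plscr1 (66.6% against 46.5%). Mef2c was also less frequent with Plscr1 (56.4% against 74.0%).

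The follicular gene Fcer2a (CD23) was less frequent in cells with a member. It was in 4.08% of cells with Nt5e against 18.4% without, in 3.38% of cells with Bhlhe41 against 18.8%, and in 0% of cells with Gpr55 against 17.7%. It was lower with each of the 10 members in every old library that could be measured, with Tbx21 measured in library 3 alone (9.09% against 24.1%). The tetraspanin gene Cd9, found on B-1 and marginal zone cells, was more frequent with Dnm3 (32.1% against 13.5%), Bhlhe41 (25.8% against 12.9%) and Spn (24.5% against 13.6%), each in 3 of 3 libraries. Cd5, the classical B-1a marker, was rare throughout, in 0% of cells with Nt5e against 0.611% without. Itgax (CD11c), usual on T-bet-positive B cells, was in 0% of cells with Tbx21 against 0.561% without in old library 3. Jchain was in 4.68% of cells with Nt5e against 14.8% without, and in 25.4% of cells with Gpr55 against 13.0%.

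Lists of other B cell genes, drawn up with earlier results of these data known, gave the setting in all gated B cells. Of 9 B-1 genes tested, 1 was called higher in old and 0 lower, Ctla4, a checkpoint receptor (log2 difference 4.28, edgeR adjusted p = 0.0142), with a list median of 1.74. Positive values were found for 7 of the 9 and negative values for 2. Ctla4 was also the lead gene of a T cell cluster. The T cell marker sum in gated cells was 64.3, 27.6 and 44.5 CPM in old and 10.7, 15.2, 13.4 and 82.3 CPM in young libraries. Its part was not tested. Of 7 genes of T-bet-positive and age-associated B cells, 1 was higher, Itgax (4.35, edgeR adjusted p = 0.0288), with a median of 0.96. Itgax is also a gene of myeloid cells, and the macrophage marker sum in these cells was 781 to 1245 CPM in old and 72.4 to 690 CPM in young libraries; its part was not tested. Over all genes tested, 0.799% were called higher and 0.326% lower. Of 10 follicular genes 0 were called in either direction; all 10 had negative values, with a median of -0.25, and the lowest p-values were those of Cr2 (-2.52, edgeR adjusted p = 0.0968) and Icosl, the ligand of ICOS (-1.46, 0.120). Of 5 memory genes 0 were called (median 0.13), with the lowest p-values for Zbtb32 (2.89, edgeR adjusted p = 0.189) and Ski (-0.59, 0.516). Of 7 marginal zone genes 0 were called (median -0.39), with the lowest p-values for Marcks (-1.72, edgeR adjusted p = 0.172) and S1pr3 (-2.15, 0.216). Of 4 germinal centre genes 1 was higher, the cell cycle gene Top2a (3.54, edgeR adjusted p = 0.0391; median 1.21). Of 8 plasma cell genes 5 were higher, with a median of 2.56: Jchain, Xbp1, Mzb1, Tnfrsf17 and Derl3. Jchain averaged 8686 ± 1042 CPM in old and 0.383 ± 0.454 CPM in young libraries (SD, n = 3 and 4), and Mzb1 1032 ± 325 CPM in old and 191 ± 81.5 CPM in young libraries. Xbp1 averaged 442 ± 151 CPM in old and 68.9 ± 32.2 CPM in young libraries, and Derl3 81.6 ± 35.5 and 1.502 ± 2.59 CPM. Tnfrsf17 averaged 33.6 ± 7.27 CPM in old libraries and had 0 UMIs in young ones. Of the members, Spn and Nfil3 were higher in the Jchain-led cluster than in the B cell cluster in each old library, and Gpr55 in old libraries 2 and 3. Within the B cell cluster alone, Spn, Nfil3 and Gpr55 each had every old library above every young library. With cells of at least 10 Jchain UMIs or any Sdc1 UMI left out, 5 members were called higher in old. At 2000 UMIs Spn was then in a mean of 6.21% of old and 0.532% of young B cells. Nfil3 was in 9.26% and 3.17%, and Gpr55 in 3.85% and 0.149%. For each of these genes every old library lay above every young one. That cut left 4, 20 and 16 old gated cells of the Jchain-led cluster in, and their part in the values was not tested.

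Averaged over the libraries of both ages, 9 of the 10 members had their highest mean in cells other than B cells. Tbx21 was highest in natural killer cells, at 195 ± 81.1 CPM, then in T cells at 48.6 ± 32.2 CPM, and averaged 5.05 ± 5.77 CPM in gated B cells (SD over 7 libraries of both ages). Spn had the same top order, with 180.0 ± 24.3 CPM in natural killer cells, 126 ± 32.8 CPM in T cells and 24.3 ± 28.8 CPM in B cells. Nt5e was highest in T cells at 44.5 ± 16.9 CPM, with B cells next at 30.4 ± 34.3 CPM, a difference within the spread over libraries. In the old libraries alone the order turned, with 70.4, 82.8 and 39.4 CPM of Nt5e in B cells against 56.5, 71.4 and 34.0 CPM in T cells. Gpr55 was the 1 member with its highest mean in B cells, at 10.7 ± 12.4 CPM, above neutrophils at 9.61 ± 16.6 CPM (4 UMIs in 142 cells of 3 old libraries) and T cells at 4.43 ± 4.96 CPM; these means do not differ beyond their spread.

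The other members were highest outside the lymphocytes. Bhlhe41 was highest in an unnamed cluster numbered 17 (313 ± 58.3 CPM, 5 libraries) and in epithelial cells (196 ± 46.9 CPM, 6 libraries), against 47.5 ± 31.9 CPM in B cells. Sox5 was highest in mural cells of blood vessels (70.4 ± 23.3 CPM), against 13.5 ± 10.9 CPM in B cells, and Dnm3 in mast cells (125 ± 53.1 CPM, 5 libraries), against 19.8 ± 21.5 CPM. Nfil3 and Plscr1 were highest in neutrophils, at 223 ± 71.5 and 140 ± 97.1 CPM over 3 libraries, all old, against 72.7 ± 6.08 and 54.9 ± 10.9 CPM in B cells of the 3 old libraries. Zbtb20 was highest in adipose progenitors (1406 ± 215 CPM), against 534 ± 340 CPM in B cells, and its lowest progenitor library, at 961 CPM, was above all gated B cell values but that of young library 2.

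**Figure D5:**
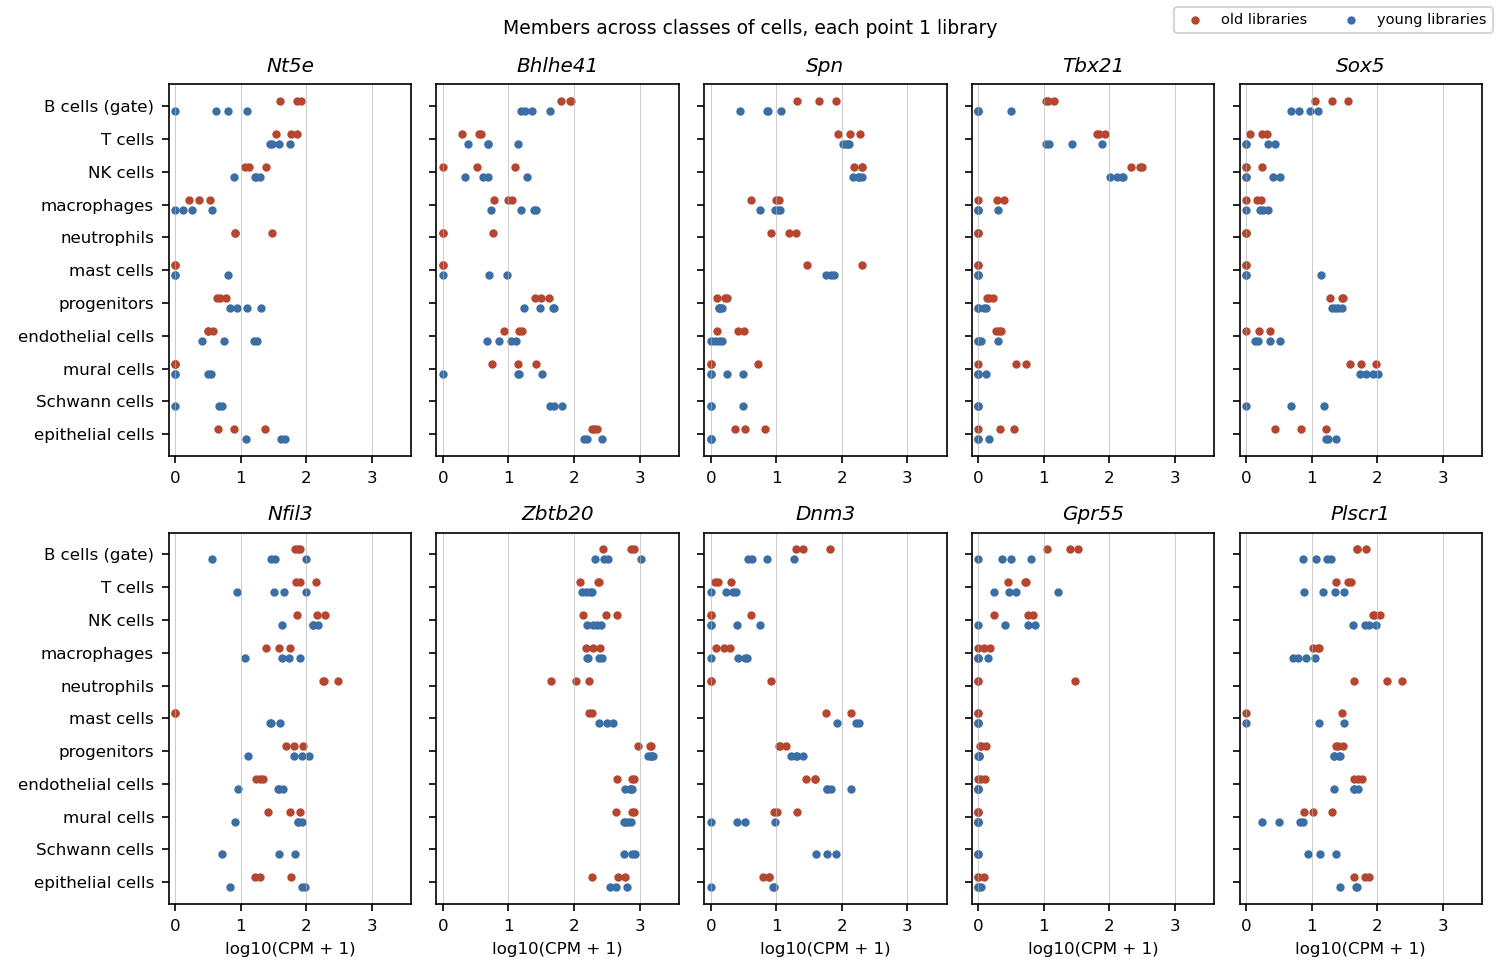
Level of each member as log10(CPM + 1) in summed cells of each named class (rows; unnamed clusters are not drawn), 1 point per library with at least 20 cells, old in red above young in blue. Tbx21 and Spn peak in natural killer cells, Dnm3 in mast cells, and Zbtb20 in progenitors; in the B cell row every old point of Nt5e, Spn and Gpr55 lies above every young point.

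With all 7 libraries, no member tested was called between the ages in any of the 8 other classes fitted. These were T cells, natural killer cells, macrophages, progenitors, endothelial cells and 3 unnamed clusters (numbers 5, 8 and 14). The filter on low counts left 8 members tested in T cells and in progenitors, and 6 in natural killer and in endothelial cells. It left 5 in macrophages and in clusters 8 and 14, and 4 in cluster 5. In T cells edgeR called 19 of 9842 genes higher in old (0.193%) and 0 lower, and 790 genes had an unadjusted p under 0.05. Nt5e stood at 0.49 ± 0.25 there (edgeR adjusted p = 0.679), Bhlhe41 at -1.10 ± 0.59 (0.706), Tbx21 at 1.21 ± 0.54 (0.610) and Plscr1 at 0.95 ± 0.37 (0.514). Without young library 2, Tbx21 was called higher in old T cells (2.40 ± 0.29, edgeR adjusted p = 0.0114). In natural killer cells 0 of 6612 genes were called, with 360 at an unadjusted p under 0.05, and Tbx21 stood at 0.94 ± 0.24 (edgeR adjusted p = 0.887). In progenitors, where 91 genes were higher (0.652%) and 164 lower (1.18%), Nt5e was at -1.40 ± 0.39 (edgeR adjusted p = 0.114) and Dnm3 at -0.82 ± 0.20 (0.0774). Higher and lower calls were 0.0623% and 0.0831% of genes in macrophages, 0.0573% and 0.0955% in cluster 5, 0.0215% and 0.0646% in cluster 8, 0.0108% and 0.0108% in cluster 14, and 0.0687% and 0.0515% in endothelial cells. In endothelial cells Nt5e was at -1.99 ± 0.58 (edgeR adjusted p = 0.220), the opposite sign to B cells.

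The difference between the age effects in B and T cells of the same libraries was fitted after seeing both. Of 11067 genes, edgeR called 31 with a larger change in B cells (0.28%) and 41 with a smaller one (0.37%). Nt5e (3.06 ± 0.53, edgeR adjusted p = 0.0417), Bhlhe41 (2.75 ± 0.52, 0.0482) and Spn (2.91 ± 0.45, 0.0361) were among the 31; since the members were selected on the B cell values in it, these p-values are not an independent test. Tbx21 stood at 3.95 ± 0.95 (edgeR adjusted p = 0.0942) and Gpr55 at 3.61 ± 0.78 (0.0684), and the other 5 members had adjusted p-values of 0.182 or more.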

How the data were processed

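Counts of UMIs per gene and cell were deposited by the authors for 3 old and 4 young libraries, as matrices of whole numbers. The submitters' processing notes name Cell Ranger 4.0.0 and build mm10, and normalization or filters upstream are not given in the sources used here. Of 45514 barcodes, 37265 remained after removing those under 500 UMIs or 300 genes, those over 15% mitochondrial UMIs and doublets. Doublets were the cells with the highest Scrublet scores, at a rate preset from the number of barcodes of the library. A library held 52336665 to 99516882 UMIs before these filters.

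Cells past the filters, doublets still included, were clustered with scanpy 1.11.5 (2000 variable genes, Leiden, resolution 1) and clusters named from fixed markers. Doublets were left out afterwards. B cells were cells with at least 2 Cd79a UMIs, whatever their cluster; 62 B cells had 2 Cd79a UMIs and 839 cells with 1 were left out. Counts were summed per library and class, with at least 20 cells, and old was fitted against young in edgeR 4.0.16 (R 4.3.3; TMM, quasi-likelihood test, low counts filtered, Benjamini-Hochberg adjustment over all genes, threshold 0.05). CPM are unscaled. Shares were taken after thinning to 2000 UMIs and compared by an exact 2-sided permutation test over 35 splits, so that p cannot go below 0.0286. Intervals and floors cover counting error only.

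Gene positions come from GENCODE M21 and promoters from RefSeq (GRCm38.p6). The members and gene lists were chosen with earlier results of these data known. Named genes were all members, the called genes of each list or else its 2 lowest p-values, and 3 companion genes per member. The fits were tested on simulated data. Alternatives covered library removal, a replicate block, other scaling, filters, gates, thinning and DESeq2 1.42.0.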

Additional observations from a re-analysis of the deposited data

Results flagged for a closer look

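In 6 of 21 sets of 4 young values checked, 1 library lay far from the other 3 by Dixon's criterion, which chance alone meets in about 1 set in 20. That rate does not hold for 4 of the 6, the shares of Nt5e, Spn and Gpr55 and the CPM of Tbx21, where a few cells or 1 UMI stand against 0 in the other 3 libraries and the criterion is met by construction. Old groups of 3 were not checked. Young library 3 had Nt5e in 0.541% of B cells and Gpr55 in 0.541%, 1 cell each, with 0 in the other young libraries at 2000 UMIs. Young library 2 had Spn in 1.87% of B cells, with 0 in the others, and 1070 CPM of Zbtb20, with the next young library at 329 CPM. Young library 4 had 2.11 CPM of Tbx21, which is 1 UMI, with 0 in the others. B cells were 6.65% of kept cells in young library 3, with the next young library at 1.96%.

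The age difference of 3 members differed between B cells and T cells of the same libraries in edgeR, with Benjamini-Hochberg adjustment over all genes. The members were selected on the B cell values in this contrast, which was fitted after seeing both classes, so its p-values are not an independent test. The difference of the log2 changes, B cells minus T cells, was 3.06 for Nt5e (adjusted p = 0.0417), 2.75 for Bhlhe41 (0.0482) and 2.91 for Spn (0.0361).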

How the results depend on the processing

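In all gated B cells the main counts were 76 genes higher and 31 lower in old, with 5 members called. Genes higher and lower were 5 and 0 with the replicate block, 183 and 386 with DESeq2, 194 and 217 with no filter on low counts, 102 and 90 with Cd79a at 1 UMI or more, and 163 and 271 with Cd79a at 4 UMIs or more. They were 23 and 9 with plasma cells left out, 98 and 109 with doublets kept, 12 and 1 under the stricter cell filter (at least 500 genes, at most 5% mitochondrial UMIs), 13 and 1 in cells without T, NK or C1q genes, 51 and 19 in the B cell cluster, 159 and 61 in that cluster without old library 3, and 37 and 25 after thinning to 2000 UMIs. Members called were 0 with the replicate block, 5 with plasma cells left out, 8 with Cd79a at 4 UMIs or more and 0 under the stricter filter. They were 2 without T, NK or C1q genes, 9 in the B cell cluster and 10 in it without old library 3. Leaving out 1 library gave 24 to 133 genes higher, 1 to 276 lower, 0 to 6 members called in B cells and 0 to 1 in T cells; the 1 was Tbx21 without young library 2. It gave 9 to 10 members with separate shares, a difference in B cell share of 1.13 to 10.5 points, and 66 to 85 pairs; the lowest share difference was without old library 3. The cause of these shifts was not tested.

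Bhlhe41 turned to -0.23 and Zbtb20 to -0.27 on the log2 scale with Cd79a at 1 UMI or more; Sox5 turned to -0.075 and Zbtb20 to -0.70 under the stricter filter, and Spn in natural killer cells to -0.047 with the block. Adjusted p over the alternatives ran from 5.7e-07 to 0.655 for Nt5e, 0.000194 to 0.214 for Spn, 0.00149 to 0.156 for Tbx21, 0.000754 to 0.186 for Gpr55 and 0.000146 to 0.467 for Plscr1 (edgeR or DESeq2). Members with separate shares were 4 at 1000 UMIs per cell, Nt5e, Bhlhe41, Dnm3 and Gpr55, against 9. Under the stricter filter they were 2, Nt5e and Nfil3. In young libraries 7 of 9 measurable pairs were higher with the first gene, and 0 of the 9 in every library. With a library left out, the exact permutation p of a share cannot go below 0.0667 (old) or 0.1 (young).

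Same-numbered old and young libraries had correlations of -0.193, 0.127 and 0.0875 in their deviations from the group means, so the numbers were not taken as pairs. The planned gate without any other-lineage UMI left 23, 22 and 784 old and 15, 3, 12 and 15 young cells, and its edgeR fit and the tests of member shares were not run; B cells by that gate were 4.74% of old and 0.272% of young kept cells (exact permutation p = 0.171). The gates by cluster and by T, NK and C1q genes, the cluster without old library 3 and the comparison of B with T cells were added after seeing the data. Depth limits the young values: in all gated cells Tbx21 had 1 and Gpr55 5 young UMIs, and in the B cell cluster Dnm3 had 0 and Nt5e 3.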
